A study of Mus musculus with 12 samples.

Results

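CBL/RUNX1 mutant (double mutant) cells were compared between 2 sorted populations. These were Ly6G+ myeloid cells of the bone marrow, and the haematopoietic stem and progenitor cells (HSPC, labelled HSCPs) of the same genotype. The comparison stands for a maturation step, and no cells were followed over time. Total RNA was sequenced from C57BL/6 mice, with marrow taken from individual animals. HSPC were enriched on CD117, the receptor encoded by Kit, after which the mutant clone was sorted by flow cytometry, and Ly6G+ cells were sorted in the same way. Each population had 2 libraries, here called Ly6G+ library 1 and 2 and HSPC library 1 and 2. The series holds 12 libraries in 6 groups of 2, the others being wild type HSPC, wild type Ly6G+ cells, CBL mutant HSPC and RUNX1 mutant HSPC. The age of the mice, the mutant alleles, the way the mutations were introduced and the mark by which the clone was sorted are not given in the sources used here. Expression is given in TPM, a transcript level per length that is scaled to a fixed library sum and allows genes to be compared within a library. A gene entered the comparison with 1 TPM or more in at least 2 of the 4 double mutant libraries, which held for 12113 of 28987 genes.

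Neutrophils arise in the marrow from progenitors that first fill primary (azurophil) granules with serine proteases and myeloperoxidase, then secondary granules with lactoferrin and cathelicidin, and last gelatinase granules, together with the surface receptors of the mature cell. Runx1 is a transcription factor of blood progenitors. Cbl attaches ubiquitin to activated receptor tyrosine kinases, Kit and Flt3 among them, and so dampens them. Ly6G is the surface protein used to sort mouse neutrophils.

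The genes used for the sort were read first. Ly6g (chromosome 15) was at 25.2 and 14.2 TPM in the HSPC libraries and at 388.5 and 1448 TPM in Ly6G+ libraries 1 and 2. All Ly6G+ values lay above all HSPC values, yet the log2 difference of 5.28 ± 1.37 (SE) did not pass the test (adjusted p = 0.0531), and library 1 lay far below library 2. Kit (chromosome 5) was at 50.8 and 38.0 TPM in HSPC and at 37.95 and 5.89 TPM in Ly6G+ libraries 1 and 2 (log2 difference -1.40 ± 0.89, adjusted p = 0.344). In TPM, library 1 had the level of the second HSPC library. Once the values were scaled, both Ly6G+ libraries lay below HSPC, with library 1 at -0.46 from the HSPC mean on the log2 scale. Runx1 (chromosome 16) was at 257 and 248 TPM in HSPC and at 126 and 142 TPM in Ly6G+ cells, without overlap but short of the threshold (-0.84 ± 0.51, adjusted p = 0.326). Cbl (chromosome 9) was at 103 and 115 TPM in HSPC against 144 and 124 TPM in Ly6G+ cells, and the populations overlapped once the values were scaled (0.35 ± 0.52, adjusted p = 0.709). Wild type HSPC held Runx1 at 12.7 and 11.3 TPM and Cbl at 31.0 and 17.9 TPM, far below double mutant HSPC. The files do not separate an introduced allele from the mouse's own for either gene. A change of the mouse's own Runx1 or Cbl therefore cannot be read from these values.

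The 2 Ly6G+ libraries differed far more from each other than any other pair. The log2 values of the pair differed with an SD of 0.997 across genes, against 0.693 in the RUNX1 mutant HSPC and 0.283 to 0.351 in the remaining 4 groups. Over the tested genes, library 2 correlated best with a wild type Ly6G+ library (Pearson r = 0.96 across genes), whereas library 1 correlated best with a CBL mutant HSPC library (r = 0.907) and less with Ly6G+ library 2 (r = 0.882). The fit therefore gave each group its own weight, the same for all genes, and each result is given below for the pair and for each Ly6G+ library. The difference from the HSPC mean correlated between the 2 libraries with r = 0.599 across the 12113 genes, a description only, since genes are not independent and both differences share the same HSPC mean.

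**Figure D1:**
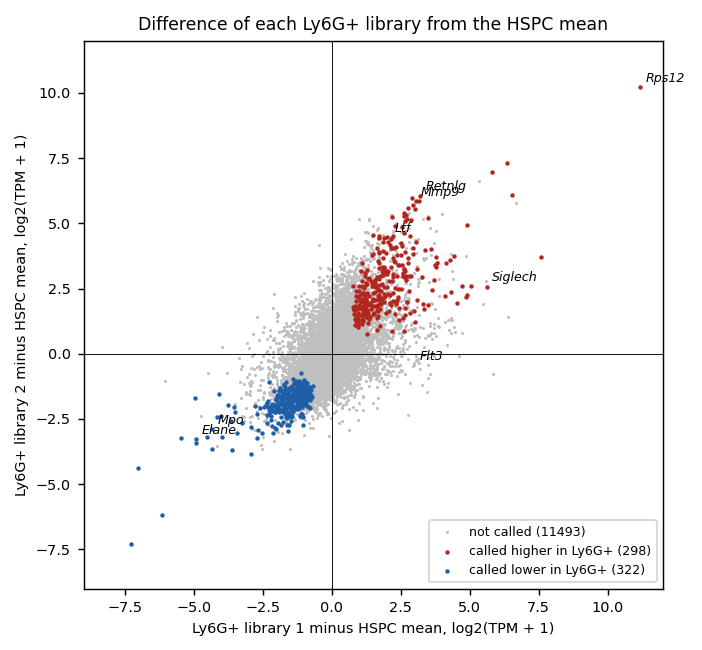
Log2 difference of each Ly6G+ library from the mean of the 2 double mutant HSPC libraries, on the log2(TPM + 1) scale, library 1 on the horizontal and library 2 on the vertical axis, 1 point per tested gene. The 298 genes called higher lie in the upper right, the 322 called lower in the lower left, and Flt3 lies to the right of 0 for library 1 and just below 0 for library 2.

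Between the populations, 620 of 12113 genes (5.12%) were called at an adjusted p under 0.05 by limma with Benjamini-Hochberg adjustment, 298 higher (2.46%) and 322 lower (2.66%) in Ly6G+ cells. None of the 620 overlapped between the populations, and the same held for 5933 genes (49%) of all tested. The calls and the overlap come from the same libraries, so the lack of overlap is no separate support. The shares of 2.46% and 2.66% are those to set beside the called members of each list below. At an unadjusted p under 0.05 there were 3244 genes (26.8%). Ly6G+ library 1 alone gave 2584 genes higher (21.3%) and 2680 lower (22.1%), 43.5% of genes in all, and library 2 alone 3814 higher (31.5%) and 3667 lower (30.3%), 61.8% in all. In both of these fits 1701 genes were higher (14%) and 1815 lower (15%), together 29%, while 109 (0.9%) were higher with library 1 and lower with library 2 and 202 (1.67%) the reverse, together 311 (2.57%). A lone library is assumed in these fits to vary like the other groups. The number of genes called rests on how the spread is estimated: the 4 double mutant libraries on their own gave 4 calls, equal weights for all groups gave 3894, and leaving out HSPC library 2 gave 91. The labels do not say that the 2 libraries of a group came from separate experiments, so p-values measure the spread between libraries only. That spread was pooled for each gene over all 6 groups, and the double mutant Ly6G+ pair had a weight of 0.157 for every gene. A called gene can therefore differ widely within the pair, as Ly6d did (331 and 13.2 TPM).

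Genes of the primary granule were among those that fell most. Ms4a3, a membrane protein of granulocyte and monocyte progenitors, was at 1130 and 1557 TPM in HSPC and at 34.5 and 107 TPM in Ly6G+ libraries 1 and 2 (log2 difference -4.35 ± 0.85, adjusted p = 0.031). Ctsg, cathepsin G, was at 2596 and 3150 TPM against 110.5 and 202 TPM (-4.18 ± 0.79, adjusted p = 0.0299). Elane, neutrophil elastase, was at 3151 and 3708 TPM against 134 and 267 TPM (-4.10 ± 0.90, adjusted p = 0.0374). All 3 were lower in both Ly6G+ libraries by an order of magnitude or more, and in each case library 1 was the lower of the pair. Mpo, myeloperoxidase, fell from 4796 and 5049 TPM to 293 and 508 TPM (-3.60 ± 0.79, adjusted p = 0.038). Prtn3, proteinase 3, fell from 2800 and 3112 TPM to 196 and 420.5 TPM (-3.29 ± 0.80, adjusted p = 0.0477).

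Of 14 primary granule genes tested, these 5 fell, none rose, and 9 lay without overlap below HSPC, against 23.9% of all tested genes. Their median log2 difference was -1.82 (-2.002 with library 1 and -1.51 with library 2), beside 0.02 over all tested genes. The members went different ways: Lyz2, lysozyme, which mature myeloid cells also make, was at 1680 and 944 TPM in HSPC and at 4895 and 17520 TPM in Ly6G+ cells (2.94 ± 0.76, adjusted p = 0.0537). Cst7, Prss57 and Gusb lay below HSPC without overlap but did not pass (adjusted p = 0.0574, 0.094 and 0.107). Ctsc, Serpinb1a and Fcnb overlapped, and Cd63 did so in scaled values only. Gfi1, a transcriptional repressor of granulocyte progenitors, fell with the granule genes, from 77.2 and 101 TPM to 6.34 and 16.3 TPM (-2.88 ± 0.57, adjusted p = 0.0319). With HSPC library 2 left out none of the 14 granule genes was called by limma, and without scaling 2 were, while the median stayed at -1.65 and -1.89.

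**Figure D2:**
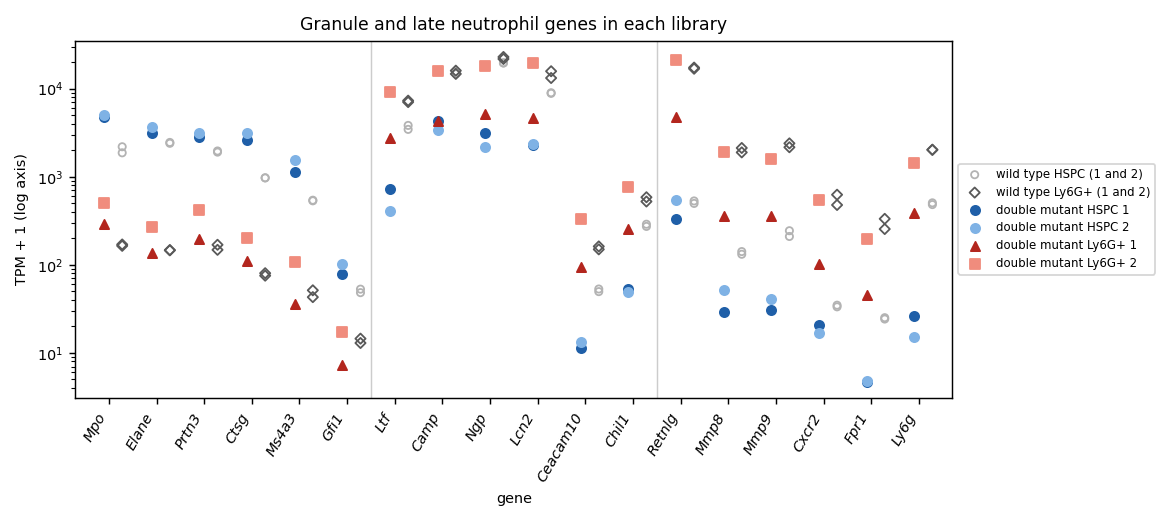
TPM + 1 on a log axis of 18 granule and late neutrophil genes in each library, filled for the double mutant and open for the wild type. Mpo, Elane, Prtn3, Ctsg, Ms4a3 and Gfi1 lie lower in both Ly6G+ libraries than in both HSPC libraries, while Camp and Ngp lie near or just above the HSPC level in library 1 (4251 and 5107 TPM) and well above it in library 2 (15930 and 17930 TPM).

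Other genes with large falls were Dmkn, Gstm1, Mt1, Vat1, Tfpi and Fbp1. Dmkn, known as an epidermal secreted protein, went from 198 and 277 TPM to 0.701 and 7.62 TPM (-5.71 ± 1.18, adjusted p = 0.0347). Gstm1, a glutathione transferase, went from 312 and 453.5 TPM to 18.1 and 30.6 TPM (-3.86 ± 0.90, adjusted p = 0.0427). The metal-binding protein gene Mt1 went from 608 and 668 TPM to 60.7 and 36.7 TPM (-3.66 ± 0.49, adjusted p = 0.0144). For these 3 genes both Ly6G+ libraries lay far under HSPC, with Dmkn the lower in library 1. Fbp1, a gluconeogenic phosphatase, fell by 3.11 ± 0.44 on the log2 scale, Tfpi, an inhibitor of coagulation, by 3.19 ± 0.77, and Vat1 by 3.57 ± 0.54 (adjusted p = 0.017, 0.0458 and 0.0183).

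Secondary granule genes separated the 2 Ly6G+ libraries. Of 20 tested, 2 rose, 0 fell, and 9 lay above HSPC without overlap (25.1% of all tested genes did). The median log2 difference was -0.02 with library 1 and 2.48 with library 2. With library 2 alone all 20 were called higher, while library 1 alone gave 5 higher and 3 lower. Ceacam10, an adhesion molecule of the carcinoembryonic antigen family, rose from 10.3 and 12.3 TPM to 93.3 and 328 TPM (3.88 ± 0.66, adjusted p = 0.0244). Chil1, a chitinase-like protein, rose from 52.0 and 47.8 TPM to 252 and 756 TPM (3.17 ± 0.70, adjusted p = 0.0382). Both genes were well above HSPC in library 1 and higher again in library 2. Ltf, lactoferrin, was at 720 and 402 TPM in HSPC and at 2765 and 9149 TPM in Ly6G+ cells (3.29 ± 0.86, adjusted p = 0.054). Camp, the cathelicidin precursor, was at 4270 and 3366 TPM in HSPC and at 4251 and 15930 TPM in Ly6G+ cells (1.18 ± 0.79, adjusted p = 0.366). Camp in library 1 thus lay inside the HSPC range. Ngp (3159 and 2186 against 5107 and 17930 TPM) and Lcn2 (2278 and 2375 against 4595 and 19390 TPM) lay above HSPC in both libraries without passing (adjusted p = 0.202 and 0.142). Hp, haptoglobin, and Chil3 were below both HSPC libraries in library 1 and above both in library 2, at 60.3 and 696.5 TPM for Hp and 1772 and 8777 TPM for Chil3.

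Genes of the late neutrophil rose in part. Of 35 tested, 7 rose, 0 fell and 19 lay above HSPC without overlap, against 2.46% called higher and 25.1% above without overlap of all tested genes. The median log2 difference was 0.74 in library 1 and 2.32 in library 2. Retnlg, a resistin-like secreted protein of mature neutrophils, rose from 328 and 542 TPM to 4706 and 21390 TPM (4.63 ± 0.92, adjusted p = 0.0322). The gelatinase gene Mmp9 rose from 30.0 and 40.2 TPM to 354 and 1579 TPM (4.45 ± 1.10, adjusted p = 0.0494). The collagenase gene Mmp8 rose from 28.2 and 51.4 TPM to 353 and 1892 TPM (4.44 ± 1.03, adjusted p = 0.0429). In these 3 genes library 1 had moved clear of HSPC and library 2 stood higher again. Fpr1, the formyl peptide receptor, rose from 3.68 and 3.74 TPM to 44.2 and 193 TPM (4.32 ± 0.85, adjusted p = 0.031). Cxcr2, the chemokine receptor that draws neutrophils out of the marrow, rose from 19.6 and 15.7 TPM to 100.4 and 544 TPM (3.71 ± 0.72, adjusted p = 0.0308). Mxd1, an antagonist of Myc, and Selplg, the ligand of P-selectin, rose by 3.07 ± 0.66 and 1.73 ± 0.39 on the log2 scale (adjusted p = 0.0365 and 0.0407). Itgam (CD11b) and Csf3r, the receptor for G-CSF, were above HSPC in both libraries but did not pass, at 215 and 650 TPM and at 171 and 532.5 TPM (adjusted p = 0.0512 and 0.0712). Stfa1, Slpi, Lmnb1, Gsr, Trem3 and Clec4e were among the late genes that overlapped. Of the 35, 1 was called with HSPC library 2 left out and 3 when no filter on low values was used.

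S100a8 and S100a9, the calprotectin pair and among the most abundant transcripts of these cells, showed the same split. S100a8 was at 54420 and 65780 TPM in HSPC, 35030 TPM in Ly6G+ library 1 and 123400 TPM in library 2 (0.20 ± 0.81, adjusted p = 0.898). S100a9 was at 23880 and 26460 TPM in HSPC, 32420 TPM in library 1 and 119400 TPM in library 2 (1.37 ± 0.77, adjusted p = 0.284). The HSPC libraries thus already held these transcripts at a high level. Nearest to a call, in opposite directions, were S100a1 at 137 and 166 TPM against 21.8 and 48.3 TPM (-2.10 ± 0.615, adjusted p = 0.0712) and S100a6 at 168 and 173 TPM against 568 and 2380 TPM (2.82 ± 0.84, adjusted p = 0.0742). No S100 gene of 8 tested and no subunit of the NADPH oxidase of 7 tested was called by limma (4 and 1 at an unadjusted p under 0.05, beside 26.8% of all tested genes). The oxidase median was 0.22 in library 1 and 1.79 in library 2. Cybb, its catalytic subunit, was at 140 and 106 TPM against 203 and 522 TPM (1.48 ± 0.76, adjusted p = 0.245). In bulk libraries, fewer cells of a type and less RNA per cell cannot be told apart.

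Of 30 stem and progenitor genes tested, none was called higher or lower by limma (1 and 5 at an unadjusted p under 0.05, beside 26.8% of all tested genes in either direction). Without overlap, 1 lay above and 7 below HSPC (25.1% and 23.9% of all tested genes). The median log2 difference was 0.04 with library 1 and -0.94 with library 2. With library 2 alone 17 were lower and 2 higher, with library 1 alone 7 lower and 4 higher. Myb, a transcription factor of dividing progenitors, was at 197 and 185 TPM in HSPC and at 126 and 31.1 TPM in Ly6G+ cells (-1.52 ± 0.43, adjusted p = 0.0668). Cd34 was at 203 and 129 TPM in HSPC, 195 TPM in library 1 and 40.9 TPM in library 2 (-0.78 ± 0.66, adjusted p = 0.487). Flt3, a receptor tyrosine kinase of early progenitors and dendritic cell precursors, was at 26.2 and 17.5 TPM in HSPC, 214.5 TPM in library 1 and 11.8 TPM in library 2 (1.28 ± 1.32, adjusted p = 0.579). Library 1 was therefore the highest of the 4 libraries for Flt3, and it was so too for Sox4 (105.5 TPM), Meis1 (24.5 TPM) and Cd27 (90.4 TPM), which library 2 held at 3.42, 2.31 and 3.45 TPM. Gata2, by contrast, lay below HSPC in both, at 32.5 and 17.9 TPM against 1.23 and 4.11 TPM (-2.72 ± 0.92, adjusted p = 0.099).

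**Figure D3:**
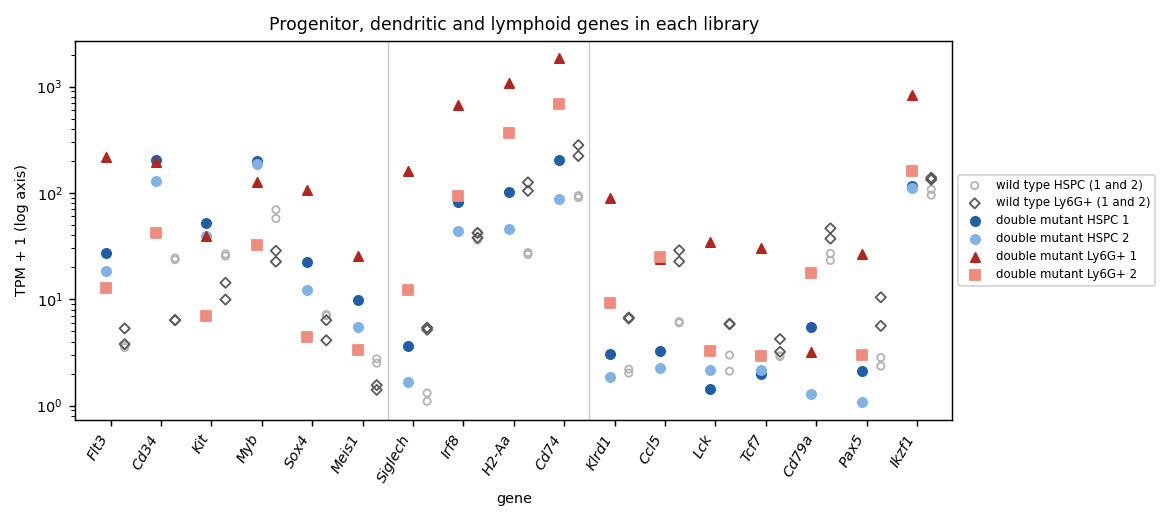
TPM + 1 on a log axis of progenitor, dendritic cell and lymphoid genes in each library, filled for the double mutant and open for the wild type. Ly6G+ library 1 is the highest double mutant library for Flt3 (214.5 TPM), Siglech (158 TPM), Irf8 (667 TPM), Klrd1 (88.5 TPM), Lck (33.7 TPM) and Ikzf1 (831 TPM), while for Cd79a (2.22 TPM) it lies inside the HSPC range.

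The summed levels of dendritic cell genes and of T and NK cell genes were highest in the same library, whereas those of the monocyte, erythroid, megakaryocyte and mast cell lists were higher in library 2 than in library 1. The 13 dendritic cell and MHC class II genes summed to 804 and 386 TPM in HSPC, 5993 TPM in Ly6G+ library 1 and 1968 TPM in library 2. Of the 12 tested, 3 rose, 0 fell and 10 lay above HSPC without overlap, against 25.1% of all tested genes. H2-Aa, an MHC class II chain, rose from 100.4 and 44.6 TPM to 1069 and 368 TPM (3.27 ± 0.72, adjusted p = 0.0383). Siglech, a receptor of plasmacytoid dendritic cells, rose from 2.67 and 0.667 TPM to 158 and 11.2 TPM (4.09 ± 0.92, adjusted p = 0.0403), and Ciita, the activator of MHC class II genes, by 2.57 ± 0.57 (adjusted p = 0.0385). Both libraries exceeded HSPC for these 3 genes, with library 1 the higher. Irf8, which directs monocyte and dendritic fates, was at 81.2 and 43.0 TPM against 667 and 91.7 TPM (2.11 ± 0.65, adjusted p = 0.0805).

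The 15 T and NK cell genes summed to 17.45 and 18.8 TPM in HSPC and 191 and 63.5 TPM in Ly6G+ libraries 1 and 2, and of the 9 tested the chemokine Ccl5 and the NK receptor Klrd1 rose. Ccl5 went from 2.23 and 1.27 TPM to 22.6 and 24.2 TPM (3.13 ± 0.46, adjusted p = 0.0182), and Klrd1 from 2.09 and 0.837 TPM to 88.5 and 8.15 TPM (3.52 ± 0.85, adjusted p = 0.0455). Tcf7, Lck, Il2rb and Trbc1 lay above HSPC without overlap but did not pass. Nkg7 went the other way, from 9.29 and 9.25 TPM to 4.55 and 4.95 TPM without passing, and Cd3d and Trbc2 overlapped. The T cell receptor subunit Cd3e was at 0 TPM in both HSPC libraries and in library 1, and at 0.961 TPM in library 2. Cd3g, Klrb1c, Gzma and Gzmb were under 1 TPM in library 1. The 14 B cell genes summed to 371 and 347.5 TPM in HSPC and 623 and 908 TPM in Ly6G+ cells, and of the 11 tested Cd22 rose (2.66 ± 0.53, adjusted p = 0.0324). Most of these sums was Cd24a, a gene expressed widely outside the B lineage, and without it the other 13 genes summed to 45.6 and 27.3 TPM in HSPC and 122 and 107 TPM in Ly6G+ libraries 1 and 2. Ms4a1, which encodes the B cell marker CD20, was at 0.568 TPM in library 1 and 3.14 TPM in library 2. The 20 monocyte and macrophage genes summed to 1813 and 1539 TPM in HSPC and 1432 and 3314 TPM in Ly6G+ cells, and of the 19 tested Mpeg1 rose (1.97 ± 0.48, adjusted p = 0.048). Among 17 erythroid, 11 megakaryocyte and 14 mast cell, basophil and eosinophil genes tested none was called by limma (0, 1 and 2 at an unadjusted p under 0.05, beside 26.8% of all tested genes). The erythroid list summed to 828 and 1055 TPM in HSPC and 408 and 1210 TPM in Ly6G+ libraries 1 and 2, the megakaryocyte list to 160 and 90.1 against 56.8 and 329 TPM, and the mast cell, basophil and eosinophil list to 1200 and 559 against 132 and 472 TPM. Among all tested genes 2.46% were called higher, the share beside the calls in these cell type lists. The part of other cell types in the differences between the populations, and between the 2 Ly6G+ libraries, was not tested.

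The median log2 difference was 0.81 over 28 transcription factors of the myeloid lineage (0.22 with library 1 and 1.05 with library 2) and 0.84 over 19 growth factor and cytokine receptors (0.03 and 1.21), beside 0.02 over all genes tested. Of the 28 factors, Ikzf1 and Rara rose and Gfi1 fell. Of all tested genes 2.46% were called higher and 2.66% lower, the shares beside each count called here. Ikzf1, a zinc finger factor of lymphoid and myeloid progenitors, went from 114 and 111 TPM to 831 and 159 TPM (1.75 ± 0.40, adjusted p = 0.0421). Rara, the retinoic acid receptor that acts in granulocyte maturation, went from 8.90 and 3.72 TPM to 38.4 and 67.3 TPM (2.95 ± 0.69, adjusted p = 0.0429). The libraries differed in order, with Ikzf1 highest in library 1 and Rara in library 2. Cebpa was at 65.0 and 52.8 TPM against 16.2 and 27.3 TPM (adjusted p = 0.224), Cebpe overlapped at 217 and 261 against 93.2 and 317 TPM (adjusted p = 0.789), and Spi1 overlapped at 256 and 253.5 against 212 and 526 TPM (adjusted p = 0.636). Runx3 lay below HSPC at 304 and 284 against 143 and 147 TPM (adjusted p = 0.243), whereas Cbfb, the shared partner of Runx1 and Runx3, overlapped (adjusted p = 0.855). Of the 19 receptors, Ifnar1, a chain of the type I interferon receptor, rose from 23.4 and 18.5 TPM to 55.4 and 39.9 TPM (1.19 ± 0.24, adjusted p = 0.0325). The kinase Syk was the member called among 17 genes of Cbl and its partners, at 49.7 and 45.8 TPM against 103 and 128 TPM (1.31 ± 0.31, adjusted p = 0.0442), and 13 of the 17 lay above HSPC without overlap, against 25.1% of all tested genes.

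Interferon response genes stood higher in both Ly6G+ libraries. Of 28 tested, 7 rose, 0 fell, and 23 lay above HSPC without overlap, against 2.46% called higher and 25.1% above without overlap of all tested genes. The median log2 difference was 2.13 with library 1 and 2.62 with library 2, and 23 of 28 were called higher with each library alone. Stat2, which carries the interferon signal to the nucleus, rose from 11.8 and 6.67 TPM to 40.2 and 32.95 TPM (1.96 ± 0.43, adjusted p = 0.0374). Both Ly6G+ libraries stood above both HSPC libraries for Stat2. The antiviral genes Ifit3 (2.82 and 0.529 against 20.9 and 45.2 TPM) and Rsad2 (1.60 and 0.527 against 19.1 and 27.35 TPM) rose by 3.67 ± 0.80 and 3.51 ± 0.74 (adjusted p = 0.0373 and 0.0358). Ifit1, Oas3 and the RNA sensor Ifih1 rose as well (adjusted p = 0.0439, 0.0433 and 0.043). Irf7, a factor induced by interferon, was at 20.4 and 5.70 TPM against 191 and 174 TPM and narrowly missed the threshold (3.98 ± 1.01, adjusted p = 0.0512). The HSPC libraries differed for several of these genes, HSPC library 1 being the higher, for example Isg15 at 11.4 and 2.78 TPM. Ifitm1, Ifitm2, Ifitm3, Ifit2 and Bst2 overlapped. The 7 calls became 3 with HSPC library 2 left out, 16 with HSPC library 1 left out and 1 without scaling, at medians of 1.89, 2.40 and 2.15.

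**Figure D4:**
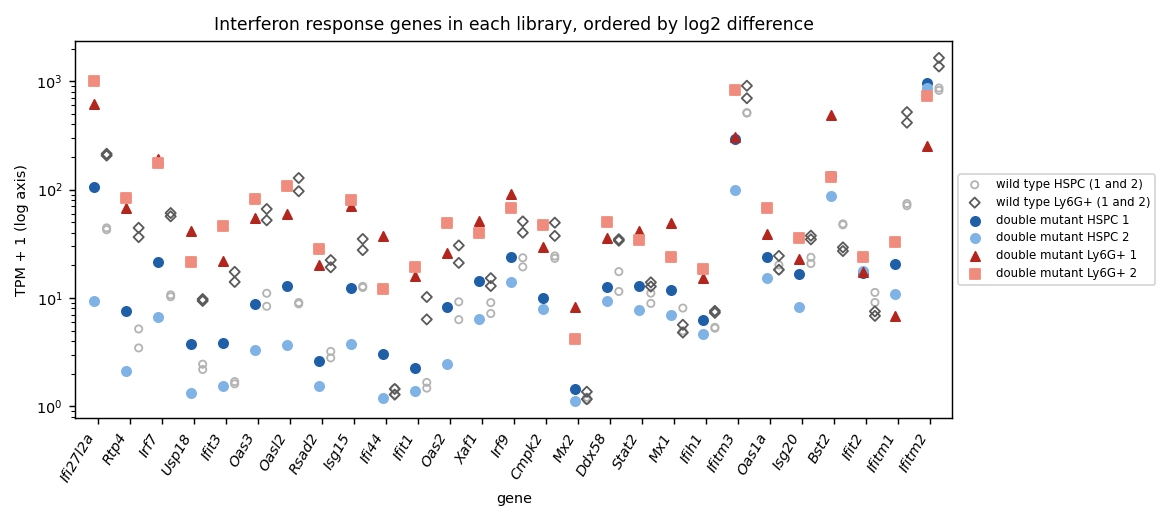
TPM + 1 on a log axis of 27 interferon response genes in each library, ordered by log2 difference from high to low, filled for the double mutant and open for the wild type. For 22 of them both Ly6G+ libraries lie above both double mutant HSPC libraries, and the exceptions include Ifit2, Ifitm1 and Ifitm2 at the right.

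The promoters of 3 called interferon genes are shown because factors activated by interferon bind a known element, the interferon-stimulated response element, searched here as 2 copies of GAAA in a row with any 2 bases between them, on both strands. Each line holds the 250 bases before the RefSeq transcription start (GRCm38.p6), 5′ to 3′ on the gene's own strand, with matches to the element in capitals. Ifit3 lies on the plus strand (chr19:34583279-34583528), Rsad2 on the minus strand (chr12:26456453-26456702) and Stat2 on the plus strand (chr10:128270248-128270497).
Ifit3: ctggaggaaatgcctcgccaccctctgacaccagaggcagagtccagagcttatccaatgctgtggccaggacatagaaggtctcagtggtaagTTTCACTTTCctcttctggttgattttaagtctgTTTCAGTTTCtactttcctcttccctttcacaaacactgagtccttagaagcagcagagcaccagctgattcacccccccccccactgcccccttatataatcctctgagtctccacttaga
Rsad2: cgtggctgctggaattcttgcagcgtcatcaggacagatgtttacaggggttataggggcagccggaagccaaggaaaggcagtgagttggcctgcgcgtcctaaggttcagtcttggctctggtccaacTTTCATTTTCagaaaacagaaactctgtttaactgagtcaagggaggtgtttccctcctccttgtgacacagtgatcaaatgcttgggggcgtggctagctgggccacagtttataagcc
Stat2: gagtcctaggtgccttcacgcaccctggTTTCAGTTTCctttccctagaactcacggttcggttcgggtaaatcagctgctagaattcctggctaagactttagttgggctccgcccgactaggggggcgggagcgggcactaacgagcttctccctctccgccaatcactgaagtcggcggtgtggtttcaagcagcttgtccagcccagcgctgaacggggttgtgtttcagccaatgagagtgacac

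All matches in these windows read on the strand opposite to the gene, and Ifit3 holds 2 of them while Rsad2 and Stat2 hold 1 each. Of the 28 interferon genes, 21 had a window, and 9 of these (42.9%) held the element, against 3.45% of the 9107 tested genes with a window. Among genes called higher 22 of 221 (9.95%) held it, and among genes called lower 6 of 258 (2.33%). The RUNX element TGTGGT, searched in the same windows on both strands, was present in 13.4% of tested genes, 14.9% of those called higher and 11.6% of those called lower. A match is a description of the letters, not evidence of binding.

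Among 21 tested genes of inflammation and the NF-κB pathway 3 rose, 0 fell and 16 lay above HSPC without overlap (25.1% of all tested genes did). Relb, a subunit of NF-κB, went from 2.22 and 1.53 TPM to 18.0 and 9.53 TPM (2.28 ± 0.37, adjusted p = 0.0216). Nfkbie, an inhibitor of NF-κB, went from 5.37 and 5.04 TPM to 31.0 and 14.45 TPM (1.86 ± 0.34, adjusted p = 0.0281). Il1rn, the interleukin-1 receptor antagonist, went from 3.82 and 1.33 TPM to 26.9 and 95.7 TPM (3.94 ± 0.97, adjusted p = 0.0493). Relb and Nfkbie were highest in library 1, whereas Il1rn and Il1b (83.9 and 186 TPM, adjusted p = 0.1) were highest in library 2. Of 20 immediate early genes 4 rose, the mRNA decay factor Zfp36 (29.8 and 14.9 against 138.5 and 180 TPM), Ier5 and the antiproliferative genes Btg1 and Btg2 (adjusted p = 0.0289, 0.0252, 0.0475 and 0.0324), while Fos (123 and 13.9 TPM) and Egr1 (20.7 and 0.989 TPM) were high in library 1 alone among the Ly6G+ pair. Adhesion and migration genes stood higher, with 4 of 21 called, 0 lower and 17 above HSPC without overlap, against 25.1% of all tested genes. Beside Cxcr2 and Fpr1 these were Cd44, the hyaluronan receptor (59.0 and 48.1 against 159 and 206 TPM, 1.804 ± 0.33, adjusted p = 0.0288), and Selplg (88.6 and 71.9 against 212 and 307 TPM, 1.73 ± 0.39, adjusted p = 0.0407). Of 24 pattern recognition receptors Tlr2 rose (9.38 and 6.90 against 22.2 and 77.9 TPM, 2.28 ± 0.54, adjusted p = 0.0435). Beside the counts called in these lists stand 2.46% of all tested genes called higher.

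The largest rises outside these lists included Ly6d, Il1f9, Slfn1, Mcam, Trim30b and Adam8. Ly6d, a surface protein of early lymphoid cells, went from 0.457 and 0 TPM to 331 and 13.2 TPM (5.65 ± 0.93, adjusted p = 0.0228). Il1f9, an interleukin-1 family cytokine, went from 1.97 and 1.94 TPM to 32.7 and 139 TPM (4.51 ± 0.58, adjusted p = 0.0139). Ly6d was thus chiefly a library 1 transcript and Il1f9 chiefly a library 2 transcript, each above HSPC in both. Slfn1, Mcam, Trim30b and the metalloprotease gene Adam8 rose by 4.30 ± 0.90, 4.17 ± 0.77, 4.002 ± 0.59 and 3.998 ± 0.95 on the log2 scale, all higher in library 2 than in library 1 (adjusted p = 0.0356, 0.0288, 0.0182 and 0.0444).

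Genes of ribosome production were lower in Ly6G+ cells. Of 24 ribosome biogenesis genes tested 10 fell, 0 rose, and 23 lay below HSPC without overlap, against 2.66% called lower and 23.9% below without overlap of all tested genes. The median log2 difference was -0.87 in library 1 and -1.66 in library 2. Gar1, of the particles that modify ribosomal RNA, went from 299 and 279 TPM to 81.5 and 30.05 TPM (-2.45 ± 0.31, adjusted p = 0.0139). Nop10, of the same particles, went from 134 and 134 TPM to 50.1 and 21.1 TPM (-1.94 ± 0.29, adjusted p = 0.0183). Nolc1 and Bop1 fell by 1.37 ± 0.23 and 1.56 ± 0.30 (adjusted p = 0.0244 and 0.0307). For these genes the Ly6G+ libraries both left the HSPC range, library 2 further than library 1. Polr1a was the member that overlapped (adjusted p = 0.735). The 10 calls became 2 with HSPC library 2 left out, 5 with HSPC library 1 left out and 2 without scaling, at medians of -1.29, -1.30 and -1.35. Of 23 translation factors 2 were called lower, against 2.66% of all tested genes. Eif3b fell from 187 and 182 TPM to 106 and 51.5 TPM (adjusted p = 0.0357). Eif4g1 fell from 213 and 212 TPM to 121 and 71.9 TPM (adjusted p = 0.0403).

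Ribosomal protein genes had a median log2 difference of -0.96 (-0.45 in library 1 and -1.41 in library 2). Of 82 tested, 13 were called lower, 1 higher and 56 lay below HSPC without overlap, against 23.9% of all tested genes. Their summed share of all TPM was 20% and 19.3% in HSPC, 17.5% in Ly6G+ library 1 and 5.51% in library 2. Rps29 went from 7817 and 7447 TPM to 2393 and 925.5 TPM (-2.29 ± 0.33, adjusted p = 0.0178). With HSPC library 2 left out 1 of the 82 was called lower. Library 1 kept most of the HSPC share while single short transcripts such as Rps29 were already lower. Rps12, the member called higher, was listed near 0 in all 8 HSPC libraries of the series and at 410 to 3431 TPM in all 4 Ly6G+ libraries, while its near-identical pseudogene Rps12-ps3 was at 5882 and 5759 TPM in double mutant HSPC and at 1808 and 549 TPM in Ly6G+ cells. The assignment of reads between near-identical copies and the cell type cannot be told apart for Rps12, and no fold is given for it. Of 294 processed pseudogenes tested 18 were called (6.12%), near the 5.12% of all tested genes. At 1 TPM or more in every Ly6G+ and under 1 TPM in every HSPC library of the series were 9 of the 294. The reverse held for 3, and the share of all tested genes with either pattern was not counted.

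Nuclear genes of the respiratory chain had a median log2 difference of -0.93 (-1.08 in library 1 and -0.82 in library 2). Of 78 tested, 13 were called lower, 0 higher and 71 lay below HSPC without overlap, against 23.9% of all tested genes. Ndufa5, of complex I, went from 261.5 and 260.5 TPM to 63.0 and 38.95 TPM (-2.31 ± 0.31, adjusted p = 0.0144). Atp5g1, of the ATP synthase, went from 325 and 381 TPM to 91.4 and 45.5 TPM (-2.36 ± 0.36, adjusted p = 0.0183), and Uqcr11 and Ndufb4 fell by 2.10 ± 0.36 and 1.75 ± 0.31 (adjusted p = 0.025 and 0.0268). With HSPC library 2 left out 2 of the 78 were called. Both Ly6G+ libraries were lower here to a similar degree. Mitochondrially encoded genes gave 0 calls of 13 by limma (3 at an unadjusted p under 0.05, beside 26.8% of all tested genes, median -0.54). Transcript length moved with these differences: coding genes up to 600 nt had a median log2 difference of -0.70 and those over 4000 nt 0.19, in like measure in both Ly6G+ libraries. Among coding genes above 2000 and up to 4000 nt the medians were -0.99 for 12 ribosomal protein, -0.90 for 12 respiratory chain and -1.31 for 12 ribosome biogenesis genes, against -0.03 for the other genes of that length.

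Cell cycle genes gave 0 calls of 45 by limma (10 at an unadjusted p under 0.05, beside 26.8% of all tested genes). Below HSPC without overlap lay 24 of them, against 23.9% of all tested genes (median -0.37 in library 1 and -0.81 in library 2). Mcm2, of the replicative helicase, was at 120 and 110 TPM against 84.2 and 34.4 TPM (-1.02 ± 0.31, adjusted p = 0.0783), and Cdt1, which loads it, at 62.1 and 56.4 TPM against 47.6 and 18.1 TPM (-0.92 ± 0.30, adjusted p = 0.0898). Of 11 regulators of G1, Cdkn1b, a cyclin-dependent kinase inhibitor, rose from 23.3 and 20.4 TPM to 69.6 and 64.1 TPM (1.63 ± 0.28, adjusted p = 0.0254), to a like level in both libraries. Of all tested genes 2.46% were called higher. Myc was at 175 and 95.9 TPM against 67.4 and 18.6 TPM (-1.77 ± 0.63, adjusted p = 0.11). No gene was called by limma among 21 of glycolysis, 21 of antioxidant defence, 11 of Ras and MAPK signalling and 12 of the Bcl2 family (6, 5, 3 and 4 at an unadjusted p under 0.05, beside 26.8% of all tested genes). Members of glycolysis went apart: Ldha was at 658 and 678 against 338 and 248 TPM (adjusted p = 0.057), while the glucose transporter gene Slc2a3 was at 34.5 and 31.9 against 95.2 and 232 TPM (adjusted p = 0.0518). Among survival genes Mcl1 was at 98.1 and 92.6 against 173 and 379 TPM (adjusted p = 0.0512) and Bax at 125 and 115 against 67.5 and 52.35 TPM (adjusted p = 0.0729).

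**Figure D5:**
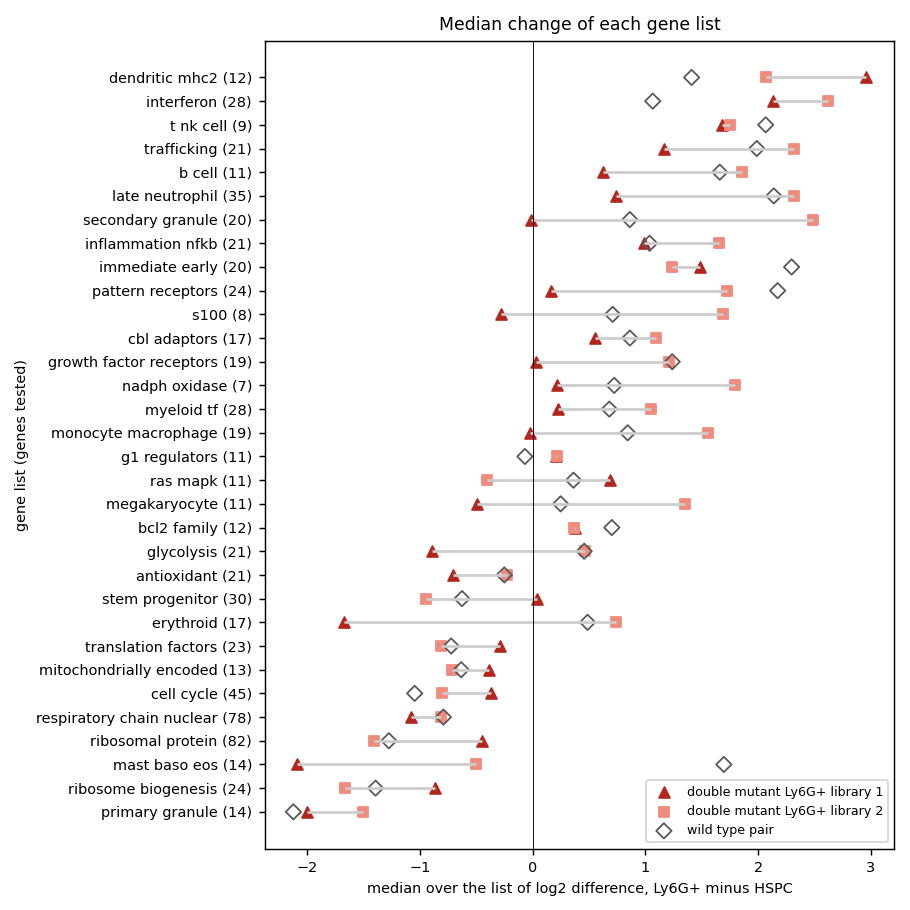
Median log2 difference between Ly6G+ cells and HSPC over each gene list, with Ly6G+ library 1 (triangles) and library 2 (squares) of the double mutant and the wild type pair (open diamonds); the number of genes tested is in parentheses. The 2 double mutant libraries lie closer together for interferon genes (2.13 and 2.62) than for secondary granule genes (-0.02 and 2.48).

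The same step in wild type marrow gave a reference. Wild type Ly6G+ cells differed from wild type HSPC in 8382 of 12113 genes (69.2%), 4143 higher (34.2%) and 4239 lower (35%), in pairs with a narrower spread (SD 0.343 and 0.283). The list medians of the wild type step were -2.12 for primary granule, 0.86 for secondary granule, 2.14 for late neutrophil and 1.07 for interferon genes. They were -1.39 for ribosome biogenesis and -1.28 for ribosomal protein genes. These lay in the direction of the double mutant pair, but not every list did so. The wild type and double mutant medians were 0.46 and -0.32 for glycolysis, and -0.07 and 0.55 for G1 regulators. For Mpo the difference between the steps was -0.08 on the log2 scale (adjusted p = 0.992), for Elane -0.13 (adjusted p = 0.99) and for Retnlg -0.50 (adjusted p = 0.956), none of which shows that the steps were alike. Wild type HSPC held Ly6g at 482 and 504 TPM, against 25.2 and 14.2 TPM in double mutant HSPC, and the part of such transcripts in the difference between the steps was not tested. The steps differed in 6 genes (0.0495%), all higher in the mutant step, with 814 at an unadjusted p under 0.05. Of these Ngfr, a nerve growth factor receptor, was at 92.0 and 92.6 TPM in double mutant HSPC and at 62.2 and 83.7 TPM in double mutant Ly6G+ cells, but at 160 and 136 TPM in wild type HSPC and 0.351 and 0.136 TPM in wild type Ly6G+ cells (difference of steps 6.89 ± 0.75, adjusted p = 0.0138). Ngfr was therefore near the HSPC level in the mutant Ly6G+ libraries and near absent from the wild type ones. The source of the Ngfr reads was not tested, and the mark by which the clone was sorted is not given.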

How the data were processed

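The deposited table holds TPM per Ensembl gene for 12 libraries, per the values (sums of 933370 to 981994), although it is named as counts; the submitters' processing notes name bcl2fastq, CASAVA 1.8, kallisto and build mm10. The depth per library is unknown, so no counting interval or limit is given. Symbols came from GENCODE M21 for 27458 genes (94.7%) and promoters from RefSeq (GRCm38.p6). The members and gene lists were chosen with earlier results of these data known.

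TPM were divided by trimmed-mean factors, and log2(TPM + 1) was fitted with limma 3.58.1 in R 4.3.3 over all 12 libraries as 6 group means, with array weights by group, trended and robust moderation and Benjamini-Hochberg adjustment over 12113 genes; the fit was tested on simulated data. Fold changes are on the log2(TPM + 1) scale and understate those of low genes. A gene is called at an adjusted p under 0.05. Groups do not overlap where neither TPM nor scaled values overlap. Lists are described by counts and medians, with no test.

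Named are Ly6g, Kit, Cbl and Runx1; the 12 largest called changes in each direction with a mean log2 of at least 2, no overlap, and no predicted genes or immunoglobulin segments; up to 4 called members per direction of each list by smallest p, or 2 where none was called; and any member of the granule, late neutrophil, S100, oxidase, progenitor, receptor and factor lists. Other genes named as overlapping, missing the threshold or high in 1 library were chosen after their values were seen. Alternatives changed the scaling, pseudocount, filter, weights, moderation, libraries and replicate block. Single genes left out of the text are not reported here; the list counts keep them.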

Additional observations from a re-analysis of the deposited data

Results flagged for a closer look

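In 6 genes the change from HSPC to Ly6G+ cells differed between the double mutant and the wild type by the test of the difference itself (limma, Benjamini-Hochberg adjusted), higher in the mutant step in each. Ngfr differed by 6.89 on the log2(TPM + 1) scale (adjusted p = 0.0138). The unnamed gene ENSMUSG00000076660 differed by 6.45 and the immunoglobulin light chain constant gene Iglc2 by 5.71 (adjusted p = 0.00617 for both). ENSMUSG00000076660 was at 0.351 and 0 TPM in double mutant HSPC and 4.62 and 7.54 TPM in double mutant Ly6G+ cells, but at 1487 and 1361 TPM in wild type HSPC and 108 and 64.3 TPM in wild type Ly6G+ cells. The predicted gene Gm10171, annotated as a processed pseudogene, differed by 3.82 (adjusted p = 0.00617). It was at 16.4 and 14.4 TPM in the 2 double mutant Ly6G+ libraries. In both HSPC groups and in wild type Ly6G+ cells it was listed at or near 0. The part of read assignment between near-identical copies in these values was not tested. The immunoglobulin joining segment Igkj4 and the heavy chain constant gene Ighg2b differed by 7.01 and 8.10 (adjusted p = 0.0414 for both). ENSMUSG00000076660, Iglc2, Igkj4 and Ighg2b were at 328 to 2581 TPM in wild type HSPC and at 0 to 0.351 TPM in double mutant HSPC. The part of B-lineage cells in the wild type HSPC libraries was not tested.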

How the results depend on the processing

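The 620 calls became 222 without scaling, 335 without trend and robust moderation, 3894 with equal group weights, 4 with the 4 double mutant libraries alone, and 8 for a change beyond log2 1. Leaving out one double mutant library gave 91 (without HSPC library 2) to 7481 (without Ly6G+ library 1). The share of higher calls, 48.1%, was 38% with upper-quartile scaling (259 higher, 422 lower) and 55.9% unscaled (124 higher, 98 lower). Same-numbered HSPC and Ly6G+ libraries did not deviate together (r = 0.049 in the double mutant, -0.016 in the wild type), and they were not treated as pairs, since the labels do not say whether they came from the same mouse; the replicate block gave 743 calls, and 120 with the 4 libraries alone. The 6 genes differing from the wild type step became 10 unscaled, 2 with a filter of 5 TPM, 3 with equal weights, 3 with the replicate block, and 3 to 4378 leaving out one library. The 3516 genes called with each Ly6G+ library alone became 251 beyond log2 1, and stayed at 2597 to 3659 otherwise. The log2 difference of Gata1 ranged from -2.37 (without Ly6G+ library 2) to 0.045 (without Ly6G+ library 1), and that of Itgb3 from -0.025 to 1.26. Of 32 list medians, 0 changed sign under any scaling, pseudocount, filter or HSPC library left out, 3 did without Ly6G+ library 1 and 5 without library 2. The cause of these changes was not tested. Depth is unknown, and 2 libraries per group limit every call.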
